A study of Mus musculus with 4 samples.

Results

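The genes described here are Stim1, Stim2, Orai1, Orai2 and Orai3, the 5 mouse genes that encode the core of store-operated calcium entry, out of 18193 genes paired with probe sets on the array. They were taken by gene symbol from the platform annotation. Of 45037 non-control probe sets, 9 carried a member's symbol alone, 2 each for Stim1, Stim2, Orai1 and Orai2 and 1 for Orai3. Each gene is represented by its brightest probe set, by mean log2(signal + 16) over all arrays, and the other is given beside it. The test took genes whose brightest probe set reached the median level of the array, a signal of 397, as all 5 members did.

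RNA came from the trachea of C57BL/6 mouse embryos at embryonic day 16. Wild type and a1H knockout had 2 arrays each, with replicate numbers 1 and 2 in the labels. The comparison asks which transcripts differ between the genotypes. The label a1H is taken as the alpha-1H subunit of T-type calcium channels, which Cacna1h encodes, and the labels give neither the allele nor whether a sample was 1 embryo, a litter or a pool. P-values therefore reflect only how far these samples spread, and that spread may be technical.

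Store-operated entry refills the calcium store of the endoplasmic reticulum. STIM proteins span the membrane of this store and sense its calcium content. When the store empties they gather at contacts with the plasma membrane and open channels built from ORAI proteins, and the entering calcium can activate calcineurin and NFAT factors. The pathway is best known from T cells, mast cells, platelets and skeletal muscle, and smooth muscle of the airway uses it too.

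The genotype labels could not be checked on the targeted gene. The brighter Cacna1h probe set read 629.5 and 538 in wild type against 981 and 631 in the labelled knockout, and the deleted part and the probe positions are not known here. All arrays had the same trimmed mean signal, but their median signals ranged from 416 to 459 in wild type and were 426 and 320.0 on labelled knockout replicates 1 and 2. Tracheal markers were present, with 8 of 8 cartilage, 8 of 9 epithelial, 7 of 7 smooth muscle and 7 of 7 mesenchymal genes above the level filter. The exception was Nkx2-1, a transcription factor of tracheal epithelium, at 145 to 337. RNA length, read as the signal at the 3' end of actin over that at its 5' end, gave ratios of 1.69 and 1.66 in wild type against 1.90 and 1.97 in the labelled knockout. For Gapdh these were 1.26 and 1.40 against 1.36 and 1.61, with overlapping groups, and the part of RNA length in the values below was not tested. Transcripts of neighbouring or other tissues were on the arrays as well. The summed signal of 4 placental genes was between 228 and 520.1 on 3 arrays and 99711 on labelled knockout replicate 2, the array on which Stim1 was lowest. Stim1 and some of the related genes are given with and without it. These related genes were not chosen by how far this array moved them.

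No member differed between the genotypes past the test, and Stim1 had the largest difference of the 5. In limma fits over 11694 genes, 0 of the 5 members had a Benjamini-Hochberg adjusted p under 0.05, against 0% of all genes tested, and the smallest adjusted p among all genes was 0.875. At an unadjusted p under 0.05 there was 1 member, Stim1, against 4.58% of all genes. The groups did not overlap for Stim1, which was lower in the labelled knockout, and for Stim2, which was higher. That is 2 of 5 members against 36.1% of all genes, of which 14.6% were lower and 21.5% higher. Of the 9 member probe sets, fitted among all probe sets, 0 passed against 0%, 1 had an unadjusted p under 0.05 against 4.93%, and 3 had groups without overlap against 37.6%. In bulk tissue, fewer cells that express a gene and less RNA per cell cannot be told apart.

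**Figure D1:**
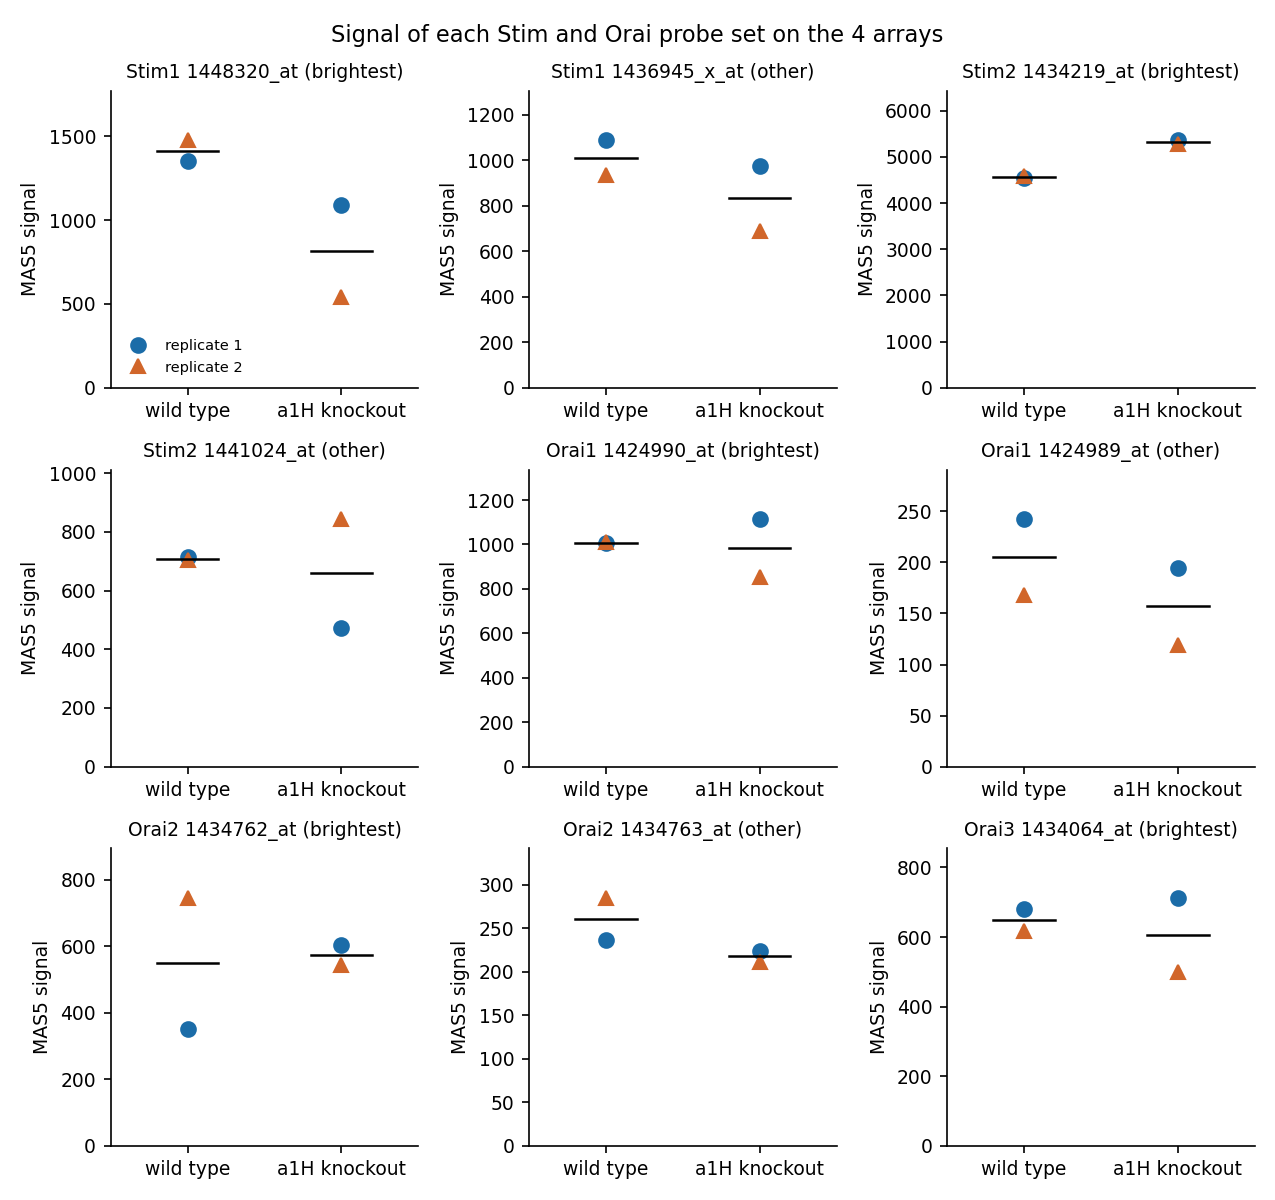
MAS5 signal (linear vertical axis from 0, with its own range in each panel) of the 9 Stim and Orai probe sets in wild type and a1H knockout, 1 point per array, with circles for replicate 1, triangles for replicate 2 and a black line for each group mean. The brightest Stim1 probe set reads 540.3 on knockout replicate 2 and at least 1088 on the other arrays, while the 4 Stim2 points of the brightest probe set lie between 4536 and 5366.

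Stim1, the main calcium sensor of the store, was lowest on labelled knockout replicate 2. The signals of 1448320_at were 1351 and 1477 in wild type against 1088 and 540.3 in the labelled knockout. Both knockout arrays lay below both wild-type arrays, but replicate 1 of the labelled knockout was much closer to wild type than to its own replicate. Means were 1414 ± 89.5 and 814 ± 387 (SD, n = 2 per group). On the log2 scale the labelled knockout minus wild type gave -0.87 (SE 0.36), with an unadjusted limma p of 0.046 and an adjusted one of 0.875. The 95% interval before adjustment ran from 0.31-fold to 0.99-fold of wild type. A log2 difference at least as low was found for 94 genes, or 0.804% of those tested, and 479 genes had a smaller unadjusted p.

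The size of the Stim1 difference depended on 1 array. Within replicate number 1 it was -0.31 and within number 2 it was -1.42, a 1.24-fold and a 2.73-fold higher signal in wild type. Without labelled knockout replicate 1 the difference was -1.36 with an adjusted limma p of 0.016, where the single remaining knockout array is assumed to vary like the others and 492 of 11694 genes, or 4.21%, were called. Without labelled knockout replicate 2 it was -0.37 with an adjusted p of 0.997. The direction was negative in all 13 alternative fits that tested Stim1, from -1.36 to -0.37. Much of this count was fixed beforehand. As the groups did not overlap, leaving out an array could not change the sign. Fits without a filter, without the trend, with array weights or with a replicate block kept -0.87.

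The other Stim1 probe set, 1436945_x_at, gave a smaller difference. It read 1089 and 933 in wild type against 975 and 691 in the labelled knockout, so the groups overlapped. In a fit of all probe sets its log2 difference was -0.29 (SE 0.28; limma adjusted p = 0.836.) Labelled knockout replicate 2 was again the lowest array. A probe set with the suffix x_at can bind more than 1 transcript, and which Stim1 splice forms either probe set reads is not known here.

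Stim2, the sensor that responds to small losses of store calcium and holds resting calcium steady, read a little higher on both labelled knockout arrays, without passing the test. The signals of 1434219_at were 4536 and 4587 in wild type against 5366 and 5287 in the labelled knockout. Arrays of a genotype lay close together, and the groups did not overlap, as for 21.5% of all genes that were higher. Means were 4561 ± 36.4 and 5326 ± 56.1 (SD, n = 2 per group). The log2 difference was 0.22 (SE 0.16; limma adjusted p = 0.875), and it was 0.24 and 0.20 within replicate numbers 1 and 2. The 95% interval ran from 0.90-fold to 1.52-fold of wild type before adjustment. The raw spread of Stim2 is far smaller than this SE implies, because with 2 arrays a group limma draws each gene's variance towards that of genes of like brightness.

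The other Stim2 probe set, 1441024_at, did not show this pattern. It read 713 and 704 in wild type against 474 and 844 in the labelled knockout, so the knockout arrays fell on either side of wild type. The log2 difference was -0.16 with an SE of 0.35. The mean of both Stim2 probe sets had a difference of 0.03.

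The ratio of Stim1 to Stim2 was lower on both labelled knockout arrays. The log2 ratio of the brightest Stim1 to the brightest Stim2 probe set was -1.74 and -1.62 in wild type against -2.29 and -3.25 in the labelled knockout. Levels of different probe sets cannot be compared, so only the change of this ratio is read. Its differences were -0.55 and -1.63 within replicate numbers 1 and 2, and the difference of group means was -1.09. The exact two-sided permutation p was 0.333, the smallest that 2 against 2 arrays can give, so this test cannot pass. Without labelled knockout replicate 2 the difference was -0.61.

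Orai1, the pore subunit of the calcium release-activated channel in immune cells and muscle, had nearly equal levels on the wild-type arrays and a spread in the labelled knockout. The signals of 1424990_at were 1006 and 1009.6 in wild type against 1115 and 854 in the labelled knockout. The 2 wild-type arrays lay between the knockout arrays. Means were 1008 ± 2.29 and 984 ± 184 (SD, n = 2 per group). The log2 difference was -0.05 (SE 0.27; limma adjusted p = 0.982). The 95% interval ran from 0.63-fold to 1.495-fold. The other Orai1 probe set, 1424989_at, lay below the level filter at 242 and 168 in wild type against 195 and 119 in the labelled knockout, with overlapping groups.

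Orai2, a channel subunit that lowers the current when it joins Orai1, varied most between the wild-type arrays. The signals of 1434762_at were 352 and 746 in wild type against 605 and 545 in the labelled knockout. Both knockout arrays fell inside the wild-type range, and the highest and lowest arrays, 2.12-fold apart, were both wild type. The log2 difference was 0.16 (SE 0.40; limma adjusted p = 0.958), and the interval from 0.58-fold to 2.13-fold leaves its direction unsettled. It was 0.76 within replicate number 1 and -0.44 within number 2, and it reversed to -0.37 without wild-type replicate 1. The other Orai2 probe set, 1434763_at, lay below the level filter at 236 and 285 in wild type against 224 and 212 in the labelled knockout. Its groups did not overlap and its log2 difference was -0.24 with an SE of 0.40. Among all probe sets, 25.8% were lower without overlap.

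Orai3, a subunit found only in mammals that can form channels opened by arachidonic acid metabolites together with Orai1, had overlapping groups. The signals of 1434064_at were 682 and 618 in wild type against 712 and 498 in the labelled knockout. The highest and the lowest array were both knockout. The log2 difference was -0.12 (SE 0.30; limma adjusted p = 0.958), and the 95% interval ran from 0.56-fold to 1.51-fold. It was 0.06 within replicate number 1 and -0.30 within number 2.

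**Figure D2:**
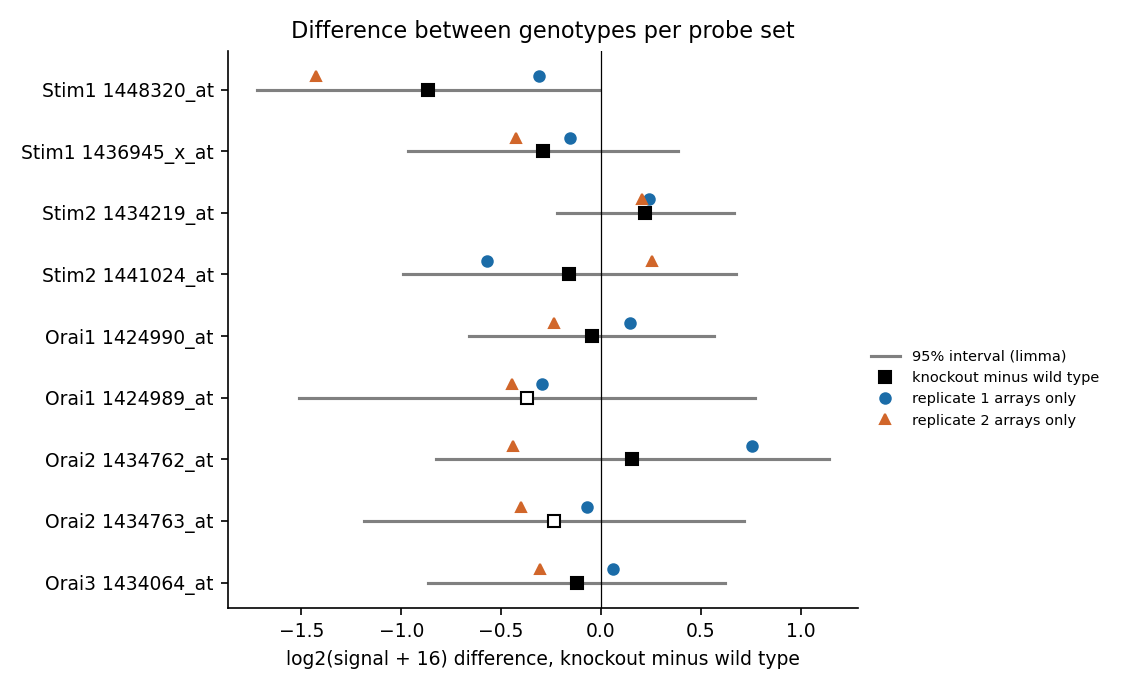
Difference in log2(signal + 16), knockout minus wild type (horizontal axis), for the 9 probe sets, with squares for the fitted difference (open where the probe set lies below the level filter), grey lines for the unadjusted 95% limma interval of the fit over all probe sets, and circles and triangles for the arrays of replicate numbers 1 and 2 alone. The brightest Stim1 probe set has the largest fitted difference, -0.87, with values of -0.31 and -1.42 within the replicate numbers.

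Labelled knockout replicate 2 was the lowest array for many of these probe sets. It was lowest for 6 of 9 member probe sets, against 42.7% of all probe sets, and for 3 of 5 brightest ones, Stim1, Orai1 and Orai3, against 32% of genes tested. The signs for Orai1 and Orai3 also depended on scaling. With arrays centred on their medians the differences were 0.19 for Orai1, 0.11 for Orai3, 0.46 for Stim2 and -0.63 for Stim1, while the median difference of all tested genes rose from 0.04 to 0.27. Relative to that median they were -0.08, -0.16, 0.18 and -0.90. With quantile normalisation Orai1 and Orai3 were 0.03 and 0.04, and Stim1 was -0.77. Stim1 stayed lower and Stim2 higher under both scalings, without passing.

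**Figure D3:**
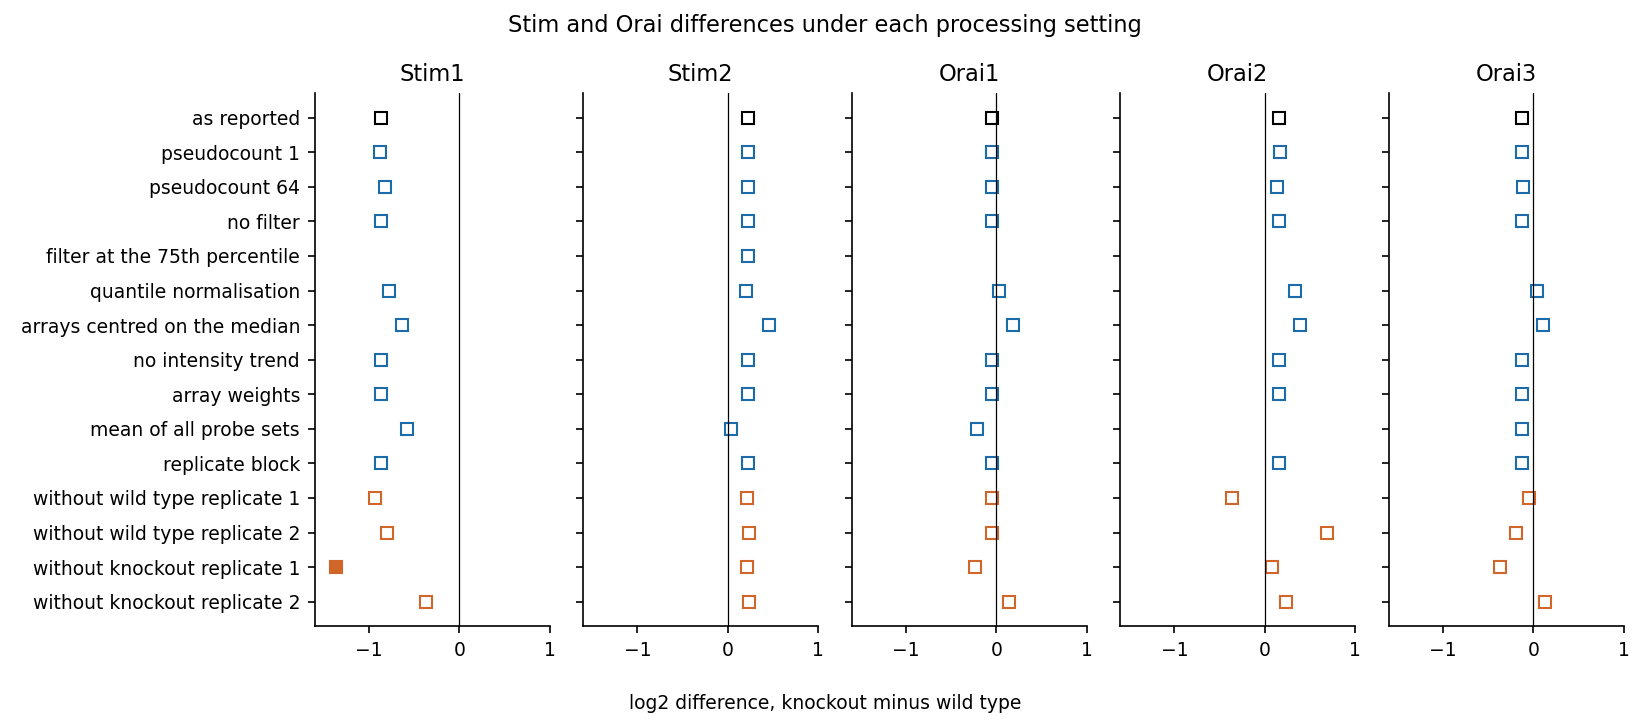
Log2 difference, knockout minus wild type (horizontal axis), of each member's gene value as reported (black), under alternative processing (blue) and with 1 array left out (orange), where filled squares mark an adjusted limma p under 0.05 and a missing square means that the gene was not tested. With 1 array left out the signs of Stim1 and Stim2 were fixed beforehand, since the groups of each did not overlap. Stim1 is negative in every fit shown and filled only without knockout replicate 1, at -1.36, Stim2 is positive in every fit shown, and the Orai genes change sign.

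Genes with a pattern like that of Stim1 over the 4 arrays were found by the Euclidean distance of log2 values centred on each gene's mean, as a description. The 5 nearest were Calml3, Tex26, Rassf9, St6gal2 and Caps2, at distances of 0.05, 0.07, 0.13, 0.14 and 0.14, against a median distance of 1.19 over all tested genes. Calml3, which encodes a calmodulin-like protein of epithelia, read 2520.0 and 2678 in wild type against 1934 and 989.9 in the labelled knockout. Caps2, a calcium-binding calcyphosin gene, read 823 and 838 in wild type against 690.2 and 300.3 in the labelled knockout. Within a distance of 0.5 of Stim1 lay 235 of the 11693 other tested genes.

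Some cell type markers had the same order of arrays as Stim1, highest on wild-type replicate 2, then wild-type replicate 1, labelled knockout replicate 1 and labelled knockout replicate 2. This order was found for 539 other tested genes, or 4.61%, and for 7 of 104 marker genes, or 6.73%. The 7, chosen by this order after the values were seen, were Actg2, Tbx4, Myh4, Myh1, Tg, Kdr and Mrc1. Myh1, a fast myosin of skeletal muscle, read 4825 and 5997 in wild type against 2120 and 709.7 in the labelled knockout. Myh4, another fast myosin, read 1187 and 1599 in wild type against 390.5 and 115 in the labelled knockout. The summed signal of all 12 skeletal muscle markers, each above the level filter, did not follow them, at 100403 and 146573 in wild type against 105536 and 151668 in the labelled knockout.

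**Figure D4:**
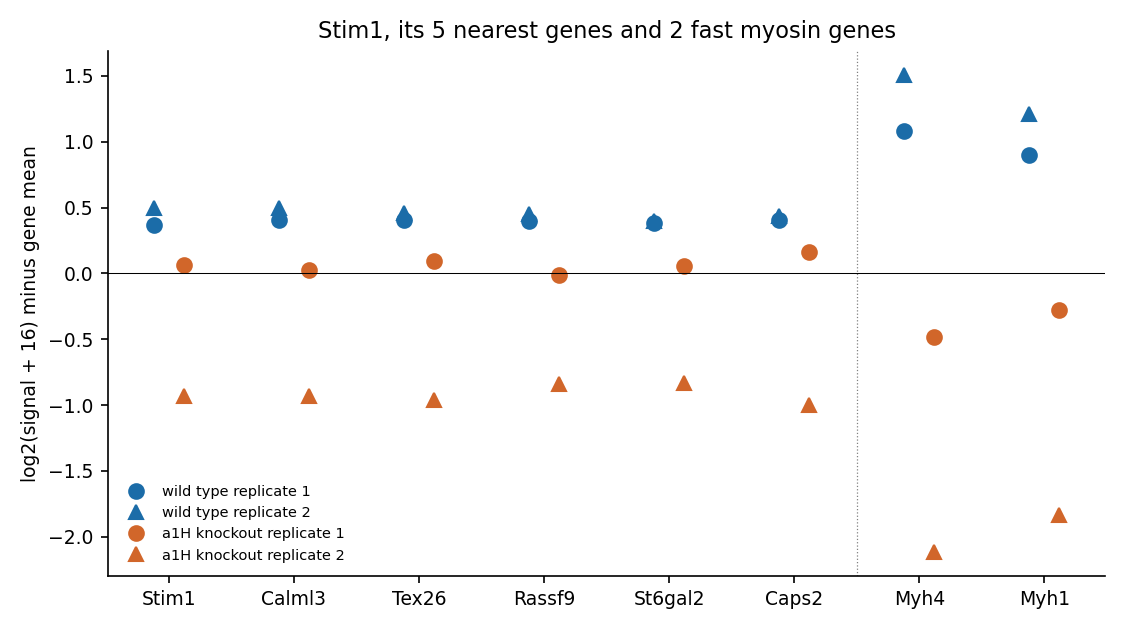
Log2(signal + 16) minus the gene's mean over the 4 arrays (vertical axis) for Stim1, its 5 nearest genes (left of the dotted line) and the fast myosin genes Myh4 and Myh1 (right), 1 point per array, with wild type in blue, knockout in orange, circles for replicate 1 and triangles for replicate 2. In each gene both wild-type points lie above both knockout points and knockout replicate 2 is lowest, as in Stim1 with 540.3 on that array.

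Sums of whole marker lists differed from the Stim1 pattern in 14 of 16 lists. The thyroid list, 3 of 4 genes above the filter, had sums of 22941 and 30038 in wild type against 21212 and 16270 in the labelled knockout, in the array order of Stim1. The platelet and megakaryocyte list had it too, within a narrow range of 5958 to 6486 and with 3 of 5 genes below the filter. Thymocyte and T-cell genes, which use Stim1 and Orai1, summed to 5460 and 15308 in wild type against 32531 and 12921 in the labelled knockout. Of 9 such genes 7 were above the filter. Of these 7, 3 were higher without overlap and 4 had an unadjusted limma p under 0.05, with 0 passing after adjustment. Thymic epithelium genes summed to 2401 and 5786 in wild type against 17691 and 10963 in the labelled knockout. The 4 of 5 above the filter, Psmb11, Prss16, Ccl25 and Pax1, were each higher without overlap, as were 21.5% of all genes tested. Their unadjusted limma p-values were 0.0043, 0.0056, 0.0050 and 0.00091, without passing after adjustment. An unadjusted p under 0.05 was found for 4.58% of all genes. The thymic epithelium gene below the filter, Foxn1, read between 55.4 and 138. Mast cell genes summed to 4248 and 8131 in wild type against 4491 and 7918 in the labelled knockout, and 2 of 6 were below the filter. Salivary gland genes, 2 of 5 below the filter, summed to 1053 and 37705 in wild type against 15451 and 8539 in the labelled knockout. The lowest and highest of these sums were both wild type, as were the lowest and highest arrays for Orai2. Airway smooth muscle genes, all 7 above the filter, summed to 44061 and 62877 in wild type against 49431 and 44440 in the labelled knockout. Heart muscle genes, all 6 above the filter, summed to 51033 and 33575 in wild type against 82611 and 29254 in the labelled knockout. The part of any of these cell types in the Stim and Orai values was not tested.

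Other genes of store-operated entry and the steps around it were taken from 4 lists. Of 58 listed genes 51 were paired with probe sets of their own and 43 passed the level filter; the other 7, among them Itpr1, were not analysed here. None of the 43 passed the limma test after adjustment, and 0 had an unadjusted p under 0.05, against 4.58% of all genes. There were 21 higher and 22 lower, while 55.9% of all genes tested were higher. The median log2 difference was -0.02 against 0.04 for all genes tested. Groups did not overlap for 16 of 43, or 37.2%, near the 36.1% of all genes. By the brightest probe sets no list gene was further from 0 than Stim1, and the furthest was Plch1 at -0.64. When the probe sets of each gene were averaged, Esyt2 at -0.86 and Plch1 at -0.64 were further from 0 than Stim1 at -0.58. When arrays were centred on their medians, the median of all genes rose to 0.27 and 82.6% of all genes were higher. The list genes higher then became 17 of 19 regulators, 1 of 2 TRPC channels, 10 of 13 store release genes and 7 of 9 mitochondrial genes.

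Proteins that tune STIM and ORAI had small differences in both directions. Of 19 tested regulators 0 passed, 9 were higher and 10 lower, with a median log2 difference of -0.04. Saraf, a store protein that switches STIM1 off after refilling, read 7567 and 9245 in wild type against 8369 and 11532 in the labelled knockout, with overlapping groups. Its log2 difference was 0.23, and 0.00087 without labelled knockout replicate 2. Esyt2, a tether between the store and the plasma membrane, read 10061 and 9571 in wild type against 8720 and 7385 in the labelled knockout. Its groups did not overlap, and its log2 difference was -0.29 with an SE of 0.19. A second Esyt2 probe set, at most 143 on any array, had -1.44, and the mean of both gave -0.86 with an unadjusted limma p of 0.043. Septin4, one of the cytoskeletal septins that organise these contacts, read 3174 and 3448 in wild type against 3714 and 5399 in the labelled knockout, and both of its probe sets were higher, by 0.44 and 0.32. The difference was 0.70 without labelled knockout replicate 1, where the only knockout array left is the one with the placental signal. It was 0.17 without labelled knockout replicate 2. Tmem178, a membrane protein that restrains STIM1, had a difference of 0.31 and Cav1, the caveolin that holds calcium channels in membrane pits, had -0.28, each with an SE of at least 0.25. Without labelled knockout replicate 2 these were 0.16 and -0.11.

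TRPC channels, which can open beside ORAI channels after receptor stimulation, were mostly dim. Of 6 measured genes 2 passed the level filter and 0 passed the test. Trpc1, the member most often linked to STIM1, read 1015 and 965 in wild type against 1008 and 623 in the labelled knockout. As with Stim1, the low value was that of labelled knockout replicate 2, and its log2 difference was -0.31 with an SE of 0.31, or 0.03 without that array. A second Trpc1 probe set read at most 133. Trpc2, a channel of pheromone-sensing neurons, read between 957 and 1021 on all 4 arrays by its brightest probe set. A second Trpc2 probe set varied more, at 938 and 701 in wild type against 867 and 589 in the labelled knockout, with overlapping groups. Trpc4, Trpc5, Trpc6 and Trpc7 read at most 291 on any array.

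Phospholipases C and IP3 receptors, which empty the store, also spread around 0. Of 13 tested genes 0 passed, 7 were higher and 6 lower, with a median log2 difference of 0.02. The IP3 receptor gene Itpr2 had a difference of -0.09 with an SE of 0.30. Itpr3 read 658 and 517 in wild type against 1024 and 446 in the labelled knockout, so the knockout arrays fell on either side of wild type. The Itpr3 difference was 0.21 with an SE of 0.42, and 0.63 and -0.21 within replicate numbers 1 and 2. Plch1, a phospholipase C of the eta type, read 1095 and 1286 in wild type against 934 and 612 in the labelled knockout. Its arrays stood in the order of Stim1, without overlap, and its log2 difference was -0.64 with an SE of 0.30. It was -0.94 and -0.34 without labelled knockout replicates 1 and 2. Plcg2, the phospholipase C of blood cells, read 533 and 419.8 in wild type against 827 and 572 in the labelled knockout. Its difference was 0.53 with an SE of 0.32, ranging from 0.27 to 0.79 with 1 array left out. Plcb1 and Plcd3, which act after receptor and calcium signals, had differences of -0.33 and 0.40, which were -0.17 and 0.69 without labelled knockout replicate 2. The other Plcb1 probe sets, at most 518 on any array, were also lower, with differences of -0.44, -0.67, -0.07 and -1.08.

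Genes of mitochondrial calcium uptake, which buffers the calcium that enters through ORAI channels, all passed the level filter and had differences on either side of 0. Of 9 tested genes 0 passed, 5 were higher and 4 lower, with a median log2 difference of 0.06. Micu3, a regulator of the uniporter, read 3985 and 3359 in wild type against 3157 and 2161 in the labelled knockout. Its groups did not overlap, and its difference was -0.48 with an SE of 0.23. It was -0.76 without labelled knockout replicate 1, where the only knockout array left is the one with the placental signal. The Micu3 difference was -0.21 without labelled knockout replicate 2 and -0.19 by the mean of its probe sets. Mcur1, another uniporter factor, had -0.32 with an SE of 0.17, and -0.35 by a second probe set that read at most 229. Smdt1, the small uniporter subunit, had 0.20, and Vdac2, a channel of the outer membrane, had 0.29, each within 2 SEs of 0. Vdac2 had -0.016 without labelled knockout replicate 2.

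**Figure D5:**
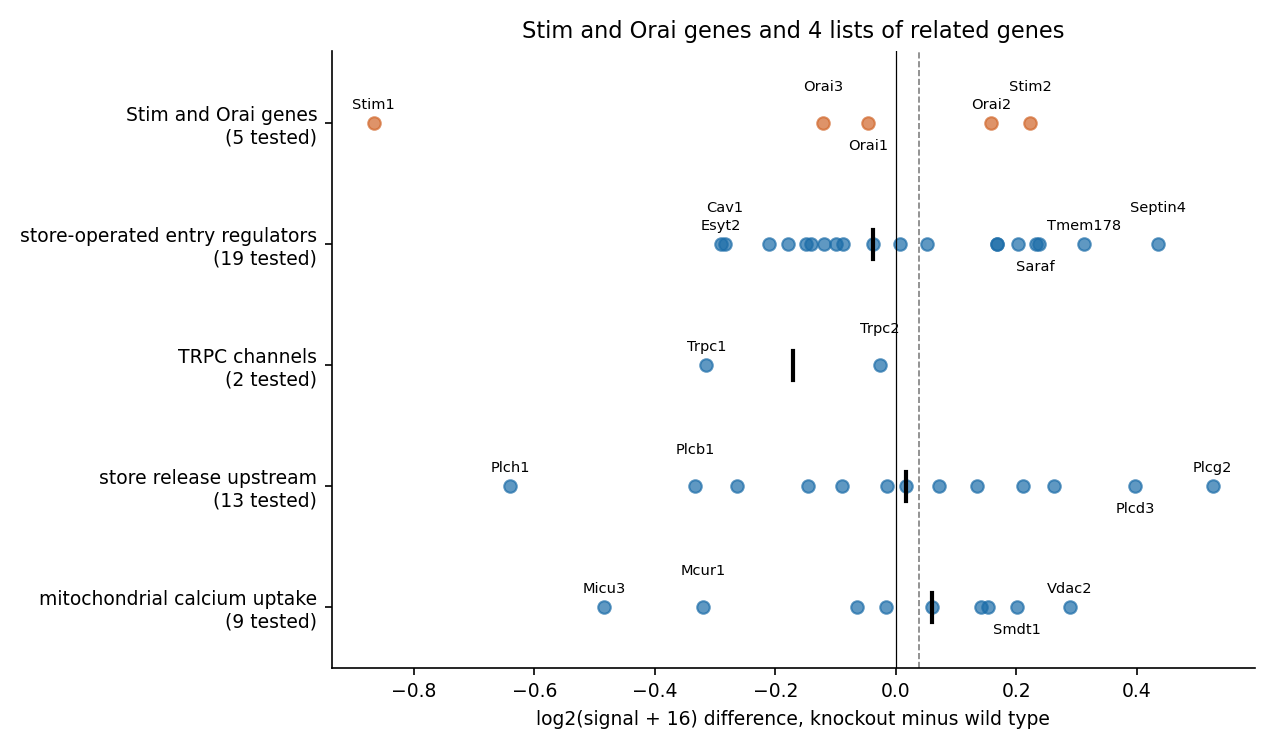
Log2(signal + 16) difference, knockout minus wild type (horizontal axis), of the 5 Stim and Orai genes (orange) and of the tested genes of 4 related lists (blue), 1 point per gene, with a thick bar for each list's median and a dashed line for the median of all tested genes at 0.04. By the brightest probe sets plotted, Stim1 at -0.87 is farther from 0 than any listed gene, and the list medians lie between -0.17 and 0.06.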

How the data were processed

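The deposited intensity of each probe set and array is a linear MAS5 signal, per the submitters' processing notes, with settings not given in the sources used here. Per the labels' protocols, amplified cDNA from small amounts of total RNA was hybridised, which can favour 3' ends. Trimmed means (2% from each end) were equal on all 4 arrays and medians were not, so arrays were scaled but not quantile normalised. No detection calls were used, and the small number of arrays limits the precision.

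Probe sets with exactly 1 platform gene (34945) were used, while 932 had several and 9160 none. Of those used, 34741 were matched to RefSeq, from which their gene names were taken. Control probe sets (64) were left out. Log2(signal + 16) of the brightest probe set per gene was fitted with limma 3.58.1 in R 4.3.3 (lmFit, eBayes with an intensity trend, genotype only, Benjamini-Hochberg over 11694 genes, threshold 0.05). Probe sets were also fitted singly, over 45037 and without a level filter. SEs are moderated. The fit was tested on simulated data. Figures were drawn with matplotlib 3.10.9.

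Named genes are the 5 members, up to 4 genes per list with the smallest unadjusted p, Trpc1, Itpr1 and Saraf, and the 5 genes nearest to Stim1. Itpr2 and Itpr3 are given as the other IP3 receptor genes. Members and lists were chosen with earlier results of these data known. Alternatives were pseudocounts of 1 and 64, other filters, quantile normalisation, median centring, no trend, the mean of all probe sets, array weights, a block for the replicate number and each array left out.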

Additional observations from a re-analysis of the deposited data

How the results depend on the processing

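The number of genes called was 0 in every fit on all 4 arrays, but 0 to 492 with 1 array left out. Leaving out labelled knockout replicates 1 and 2 gave 492 and 104, and leaving out wild-type replicates 1 and 2 gave 0 and 1. Of the member probe sets 0 were called in fits on all arrays and 0 to 1 with an array left out, the 1 being 1448320_at of Stim1. With 1 array left out the difference ranged from -1.36 to -0.37 for Stim1, from 0.21 to 0.23 for Stim2, from -0.23 to 0.14 for Orai1, from -0.37 to 0.68 for Orai2 and from -0.37 to 0.13 for Orai3. On all arrays, single genes and probe sets reversed only under the 2 other scalings. Quantile normalisation gave 0.033 for Orai1 (1424990_at), 0.038 for Orai3 (1434064_at), 0.047 for 1434763_at of Orai2 and 0.043 for Trpc2. Median centring gave 0.19, 0.11, 0.074 for 1441024_at of Stim2 and 0.21 for Trpc2, and moved the medians of the regulator, TRPC and mitochondrial lists to 0.19, 0.062 and 0.29, by its construction, since the median of all genes moved to 0.27 and the share of genes higher from 55.9% to 82.6%. With 1 array left out, 1441024_at ranged from -0.56 to 0.25, Trpc1 from -0.65 to 0.026, Trpc2 from -0.073 to 0.020 and Vdac2 from -0.016 to 0.59. The mean of all probe sets turned the regulator median from -0.037 to 0.012. Median centring shifts the differences of all genes by the same amount, and the cause of the other reversals was not tested. Only Stim2 among the members passed the filter at the 75th percentile, and Orai2 fell below the filter with the mean of all probe sets, so these fits gave no value for the others. The replicate numbers have no stated meaning. Deviations of same-numbered arrays from their group means had a correlation of 0.32 across genes, which are not independent replicates. With the replicate block Stim1 kept its difference of -0.87 at an adjusted limma p of 0.411, no gene was called, and 1359 genes in place of 536 had an unadjusted p under 0.05. With 2 arrays a group, differences of the size seen for the Orai genes lay within their 95% intervals around 0 and were not detectable.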
